A study of Mus musculus with 5 samples.

Results

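The subject is the cytotoxic granule genes perforin (Prf1), granzymes A, B and K (Gzma, Gzmb, Gzmk), the granule membrane protein gene Nkg7 and the granule proteoglycan gene serglycin (Srgn) in mouse tumors treated with doxorubicin (DOX). The members were taken by symbol, and all 6 of 6 were found among 32285 features in the T cell libraries and among 54987 in the whole-tumor libraries. Unique molecular identifiers (UMIs) of each gene were counted per cell by droplet single-cell RNA sequencing in 5 libraries from 4T1 mammary fat pad tumors of BALB/c mice, labelled 12 weeks old. The 2 T cell libraries held T cells enriched from DOX sensitive and from DOX resistant tumors by a bead kit that depletes other cells, and the 3 whole-tumor libraries were labelled control, sensitive and resistant. DOX was given intravenously at 5 mg/kg in 3 doses spaced 3 days apart, and controls received saline. The 4T1 cells carried a Thy1.1 marker, and beads against it (CD90.1) were used to remove cancer cells from the T cell preparations. The source field of the library titled resistant and that of the control name a sensitive tumor, so each whole-tumor library is named by its label alone. Each group had 1 library, T cells of 3 tumors were pooled in each T cell library, and no difference between libraries has a replicate check. Brackets give 95% intervals (exact Poisson for levels, Clopper-Pearson for shares, exact conditional binomial for ratios of levels, a normal approximation on the log scale for ratios of shares), which cover counting error only.

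Cytotoxic lymphocytes store perforin and granzymes in secretory granules and release them onto a bound target cell. Perforin forms pores in the target membrane, and the granzymes, which are serine proteases, pass into the target and cleave its proteins, granzyme B after aspartate and granzymes A and K after basic residues. Serglycin is the proteoglycan core on which granule proteins are packed, also in myeloid cells, and NKG7 is a membrane protein of the granule that takes part in its release.

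The members lie on 4 chromosomes of GRCm38. RefSeq places Prf1 at chr10:61297751-61304684 on the plus strand and Srgn at chr10:62493833-62527445 on the minus strand. Gzma (chr13:113093824-113100981) and Gzmk (chr13:113171630-113180965) are neighbors on the minus strand with 70.6 kb between them, Gzmb is at chr14:56258836-56262334 on the minus strand, and Nkg7 at chr7:43437138-43438246 on the plus strand. The promoter windows of the pore-forming gene and of the granzymes are shown because these 4 genes differed in the gates and CD8 cells that carried them. They come from RefSeq (GRCm38.p6), which had a window for all 6 members, and are 300 bases long, 5′ to 3′ on the strand of the gene, at chr10:61297586-61297885 for Prf1, chr13:113100932-113101231 for Gzma, chr14:56262285-56262584 for Gzmb and chr13:113180916-113181215 for Gzmk. Capitals mark matches, on either strand, to a T-box core (GGTGTG), a Runx core (TGTGGT), an AP-1 motif (TGANTCA) and a CRE half-site (TGACG).
Prf1: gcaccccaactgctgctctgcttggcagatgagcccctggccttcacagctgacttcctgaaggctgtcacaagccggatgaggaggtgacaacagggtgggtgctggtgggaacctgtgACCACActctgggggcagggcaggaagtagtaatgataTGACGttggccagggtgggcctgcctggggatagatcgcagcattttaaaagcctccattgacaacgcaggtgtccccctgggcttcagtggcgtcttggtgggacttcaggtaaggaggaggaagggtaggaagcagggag
Gzma: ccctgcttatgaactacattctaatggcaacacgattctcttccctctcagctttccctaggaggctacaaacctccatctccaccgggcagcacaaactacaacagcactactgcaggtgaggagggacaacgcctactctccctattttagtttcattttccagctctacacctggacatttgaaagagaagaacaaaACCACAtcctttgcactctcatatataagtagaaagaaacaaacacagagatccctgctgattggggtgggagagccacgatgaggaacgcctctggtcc
Gzmb: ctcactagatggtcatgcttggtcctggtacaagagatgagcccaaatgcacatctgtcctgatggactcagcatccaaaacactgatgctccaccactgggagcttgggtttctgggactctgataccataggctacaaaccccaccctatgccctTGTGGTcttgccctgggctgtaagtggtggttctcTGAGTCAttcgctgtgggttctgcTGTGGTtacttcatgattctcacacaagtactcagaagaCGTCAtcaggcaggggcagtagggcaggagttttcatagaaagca
Gzmk: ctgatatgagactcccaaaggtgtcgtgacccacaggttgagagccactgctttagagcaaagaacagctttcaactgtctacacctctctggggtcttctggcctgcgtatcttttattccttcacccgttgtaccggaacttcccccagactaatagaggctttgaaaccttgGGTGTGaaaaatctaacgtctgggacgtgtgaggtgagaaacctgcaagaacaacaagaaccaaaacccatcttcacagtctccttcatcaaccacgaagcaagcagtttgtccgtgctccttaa
The Gzmb window held 2 Runx matches, 1 AP-1 match and 1 CRE half-site, and the Prf1 window 1 Runx match and 1 CRE half-site. The Gzma window held 1 Runx match, and the Gzmk window 1 T-box match and none of the other motifs, although the genes are neighbors. No matches overlapped. Over 32851 RefSeq promoter windows of this length, the T-box core was found in 19.0%, the Runx core in 16.8%, the AP-1 motif in 7.81% and the CRE half-site in 20.8%, and a match is a description of letters only.

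The sensitive T cell library held 3949 barcodes and 31690845 UMIs and the resistant one 6116 barcodes and 35908799 UMIs. After filters on genes, mitochondrial UMIs and doublets, 3448 and 3091 cells were used, which was 87.3% and 50.5% of the barcodes. The median mitochondrial share over all barcodes was 2.47% in the sensitive library and 8.95% in the resistant one. The 2 libraries shared 31 barcodes, and other pairs of libraries shared 0 to 4. Cells were put in lineage gates by UMIs of lineage genes that include no member: CD8 (a Cd3 gene and Cd8a or Cd8b1, without Cd4 or Foxp3), CD4, Foxp3, natural killer (NK, no Cd3 gene and at least 2 NK genes) and gamma-delta (Trdc UMIs at least equal to those of the beta constant genes). In the sensitive and resistant libraries the gates held 1274 and 1570 CD8, 179 and 45 CD4, 46 and 11 Foxp3, 55 and 38 NK, and 89 and 25 gamma-delta cells. Marker checks fitted the gate names except for gamma-delta, where Trac of the alpha-beta receptor was seen in 39.3% and 24.0% of cells and Cd8b1 in 27.0% and 24.0%, so that gate is mixed. The libraries also held 766 and 525 fibroblast gate cells. These cells, deeper than the CD8 gate (median 13110.5 and 13726 UMIs against 4021.5 and 4640.5), served as the background for free RNA. Shares of positive cells are shares with at least 1 UMI after each cell was thinned to 1000 UMIs, and levels are UMIs summed over a gate as counts per 1000000 UMIs of that gate (CPM).

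Prf1, the pore-forming protein, was a gene of NK and CD8 gate cells. Its level in the sensitive library was 419 CPM [350.5 to 498] in NK, 268 [255 to 281] in CD8, 49.8 [28.5 to 80.8] in gamma-delta and 9.12 [4.17 to 17.3] in CD4 gate cells, with 0 UMIs in the Foxp3 gate. In the resistant library it was 446 CPM [375 to 526] in NK, 246 [158 to 366] in gamma-delta, 160 [152 to 168] in CD8 and 23.3 [6.36 to 59.8] in CD4 gate cells, again with 0 UMIs in the Foxp3 gate. NK cells were thus highest in both libraries, and the gamma-delta and CD8 levels of the resistant library overlapped, with 17 of the 24 gamma-delta UMIs in 1 cell. After thinning, 23.6% of 55 and 26.3% of 38 NK cells and 15.04% of 1263 and 10.2% of 1566 CD8 cells were positive. Without thinning the CD8 shares were 37.4% and 31.3%. In the fibroblast gate 0.132% and 0% were positive after thinning, where 0 of 524 cells allows up to 0.573%, so the CD8 and NK shares were above background.

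Gzma, the tryptase-like granzyme, was also highest in NK cells. In the sensitive library it reached 1875 CPM [1725 to 2034] in NK, 891 [867 to 914] in CD8, 230 [181 to 289] in gamma-delta and 4.05 [1.105 to 10.4] in CD4 gate cells. The resistant levels were 4526 CPM [4295 to 4767] in NK, 1434 [1410 to 1459] in CD8, 256 [166 to 378] in gamma-delta and 158 [104 to 229] in CD4 gate cells. The order was the same in both, but the last 2 of the resistant library overlapped, and 25 of its 27 CD4 gate UMIs came from 1 cell. Of the 74 UMIs in the sensitive gamma-delta gate, 54 were in 1 cell. The Foxp3 gate held 0 UMIs in the sensitive library and 1 in the resistant one. Positive NK cells were 18.2% and 28.9%, and positive CD8 cells only 6.18% and 9.58% (8.08% and 12.1% without thinning). The fibroblast background was 0.132% and 0%, and 133 of the 140 Gzma UMIs of the sensitive fibroblast gate were in 1 cell.

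Gzmb, the granzyme that cleaves after aspartate and activates caspases, was the one protease of the set with more than 1 UMI in Foxp3 gate cells of a library. In the sensitive library it was 1694 CPM [1552 to 1845] in NK, 1430 [1400 to 1460] in CD8, 516 [441 to 601] in gamma-delta, 207 [151 to 277] in Foxp3 and 45.6 [33.3 to 61.0] in CD4 gate cells. The resistant library had 2175 CPM [2015 to 2343] in NK, 838 [819 to 857] in CD8, 523 [389 to 687] in gamma-delta, 87.6 [49.0 to 144] in CD4 and 49.9 [6.04 to 180] in Foxp3 gate cells. Of the 15 UMIs in the resistant CD4 gate, 14 were in 1 cell. In the resistant gamma-delta gate 1 cell held 47 of 51 UMIs, and in the sensitive NK gate 1 cell held 149 of 525. After thinning, the mean per cell in the sensitive library was 1.25 UMIs in NK and 1.53 in CD8 cells. The resistant means were 1.24 and 0.663. Positive shares were 32.7% and 34.2% of NK cells, 34.6% and 24.3% of CD8 cells (49.0% and 40.8% without thinning), and 12.4% and 4.00% of gamma-delta cells. In the Foxp3 gate, 11.63% [3.89 to 25.1] of 43 sensitive cells and 0 of 11 resistant cells were positive, and the second count allows up to 27.3%, so no difference in shares was detectable there. The fibroblast background was 0.132% and 0.191%.

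Gzmk, a tryptase-like granzyme often found in memory T cells, had the opposite distribution between NK and CD8 gate cells. In the sensitive library it was 246 CPM [234 to 258] in CD8, 165 [124 to 216] in gamma-delta and 19.3 [11.6 to 30.1] in CD4 gate cells, with 0 UMIs in the NK and Foxp3 gates. In the resistant library it was 108 CPM [101 to 115] in CD8 gate cells, and the other gates together held 3 UMIs, 2 in CD4 and 1 in NK cells. Of the 19 Gzmk UMIs in the sensitive CD4 gate, 14 were in 1 cell. With 0 of 55 and 0 of 38 thinned NK cells positive, shares up to 5.45% and 7.89% are allowed there, against 19.95% and 8.68% in CD8 cells (45.8% and 26.6% without thinning). The CD8 level of the sensitive library was at least 25.4-fold higher than its NK level, set against a floor of 3 UMIs per gate. In the resistant library the CD8 over NK ratio was 34.1 [6.11 to 1350.0], on 1 NK UMI and without that floor, so the 2 values are not on the same footing. The fibroblast background was 0.132% and 0%.

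Nkg7 and Srgn were broader. Nkg7 was highest in CD8 cells (3960 CPM [3911 to 4010] in the sensitive library and 3107 [3071 to 3144] in the resistant one), where 93.3% and 92.1% of thinned cells were positive, against 92.7% and 89.5% of NK cells. It was lower in CD4 cells (471 CPM [429 to 516] and 794 [666 to 939]) and lowest in Foxp3 cells (129 [85.7 to 186] and 49.9 [6.04 to 180]), where 23 of the 28 sensitive UMIs were in 1 cell. In gamma-delta cells it was 1353 CPM [1229 to 1487] and 2091 [1814 to 2399], and the resistant value overlapped that of its NK cells (1975 [1824 to 2137]). Background was 0.397% and 0.191% of fibroblast gate cells. Srgn went the other way. Among the lymphocyte gates it was highest in Foxp3 cells, at 3864 CPM [3607 to 4134] and 4865 [4206 to 5598], and by CPM lowest in CD8 cells, at 2088 [2053 to 2125] and 1720 [1693 to 1747]. In the sensitive library CD4 cells followed at 3334 CPM [3221 to 3450], and well below them came gamma-delta at 2346 [2181 to 2519] and NK at 2139 [1980 to 2309], which overlapped each other, with NK also overlapping CD8. In the resistant library gamma-delta (2204 CPM [1919 to 2519]), CD4 (1985 [1779 to 2207]) and NK cells (1862 [1714 to 2018]) overlapped as neighbors, and NK overlapped CD8. After thinning, the mean of Srgn was lower in NK than in CD8 cells in both libraries. It was 1.89 against 2.19 UMIs a cell in the sensitive library and 1.58 against 1.76 in the resistant one. Neutrophil gate cells, a myeloid type with granules of its own, had 18173 and 13394 CPM of Srgn, above all lymphocyte gates. Fibroblast gate cells were Srgn positive in 25.1% and 24.0%, while no other member passed 0.4% there, so a Srgn UMI did not separate cytotoxic cells from the others.

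**Figure D1:**
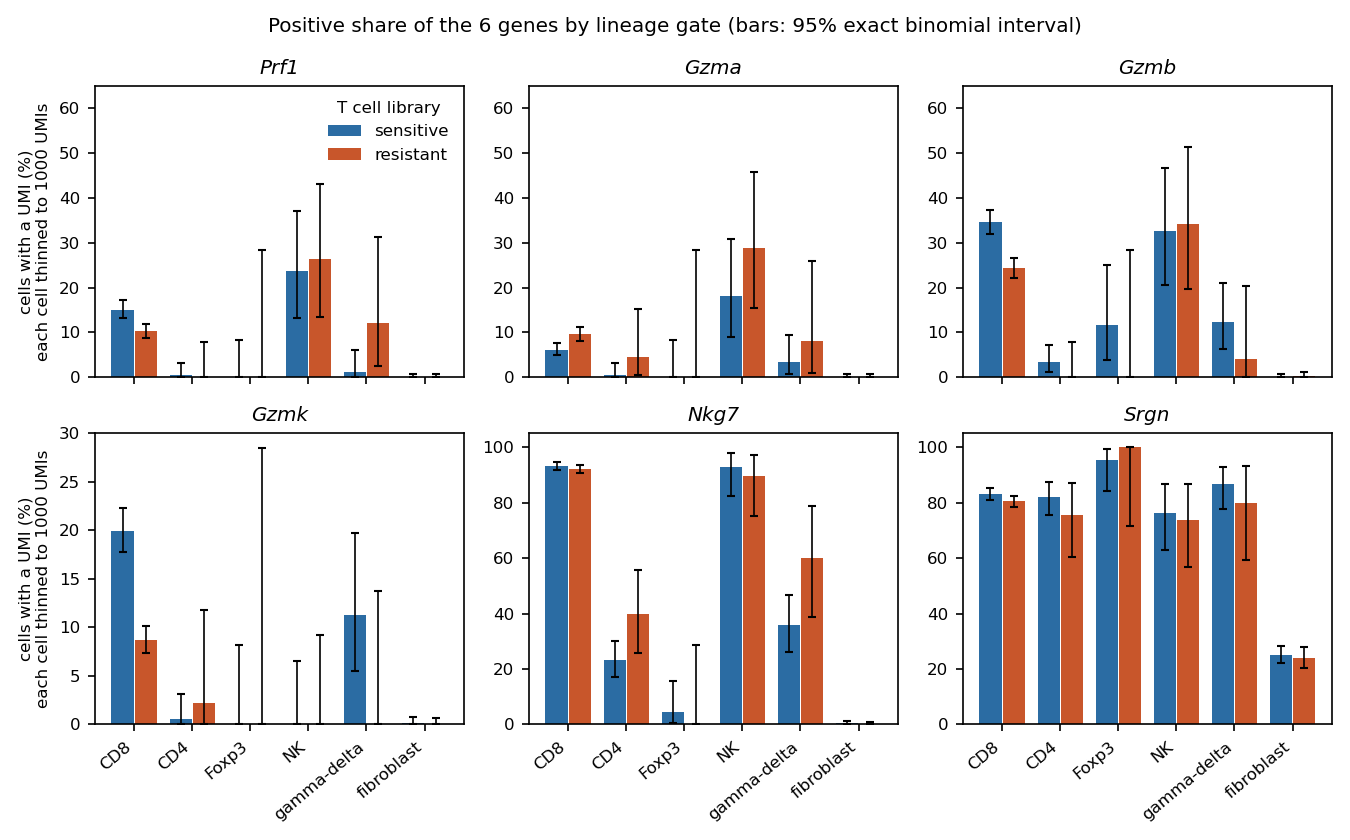
Share of cells with at least 1 UMI of each gene (y axis, percent, each cell thinned to 1000 UMIs) by lineage gate (x axis) in the sensitive and resistant T cell libraries, with 95% exact binomial intervals and panels on different y scales. Gzmk was positive in CD8 cells (19.95% and 8.68%) and in no thinned NK cell, and Srgn was positive in 73.7% to 100% of each lymphocyte gate and in 25.1% and 24.0% of fibroblast gate cells.

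Between the sensitive and resistant libraries, the CD8 gate had more Prf1, Gzmb and Gzmk and less Gzma in the sensitive library. The ratio of sensitive over resistant CPM was 1.67 [1.56 to 1.80] for Prf1, 1.71 [1.66 to 1.76] for Gzmb and 2.28 [2.10 to 2.47] for Gzmk. For Gzma it was 0.621 [0.602 to 0.641], so the 2 tryptase-like granzymes that are neighbors on chromosome 13 differed in opposite directions. Nkg7 (1.27 [1.25 to 1.30]) and Srgn (1.21 [1.19 to 1.24]) were under the fold of 1.5 used to name a difference. Thus 3 of 6 members were at least 1.5-fold higher and 1 of 6 lower. Of 9558 genes with at least 50 UMIs over both CD8 gates, 6.70% were as much higher and 3.32% lower, and their median ratio was 1.09. With 1 library a group, these ratios compare 2 pools of tumors and their spread between mice is unknown. The median mitochondrial share of the CD8 cells was 2.49% in the sensitive library and 5.62% in the resistant one, and with cells up to 20% mitochondrial UMIs included the ratios were 1.85 for Prf1 and 1.90 for Gzmb.

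The shares of positive CD8 cells, which do not rest on a few cells with many UMIs, differed in the same directions. The share ratio was 1.47 [1.21 to 1.79] for Prf1, 0.645 [0.495 to 0.839] for Gzma, 1.42 [1.27 to 1.60] for Gzmb and 2.30 [1.89 to 2.79] for Gzmk. For Nkg7 it was 1.01 [0.992 to 1.03] and for Srgn 1.03 [0.997 to 1.07], so nearly equal shares of CD8 cells carried these broad genes. With positive cells defined from 2 UMIs the share ratio was larger for Prf1 (2.32), Gzmb (1.726) and Gzmk (3.91). Without thinning it was smaller for the same genes, at 1.197 for Prf1, 1.202 for Gzmb and 1.719 for Gzmk. Each of these unthinned ratios was above 1 but below the interval given for the thinned cells. Leaving out some cells took 2 of the level ratios under the fold. Without CD8 cells that had a UMI of the T cell receptor beta segment Trbv14, 1083 and 1491 cells were left, the Prf1 ratio was 1.40 and its share ratio was 1.07 (11.1% against 10.4%), while the Gzmb and Gzmk ratios stayed above 1.5. Without CD8 cells with a UMI of the proliferation genes Mki67 or Top2a the Gzma ratio was 0.740, no longer past the fold. The Gzma level of Mki67 positive over negative cells was 0.553 in the sensitive library and 1.17 in the resistant one, on 37 and 88 positive cells, and the part of dividing cells in the difference was not tested.

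**Figure D2:**
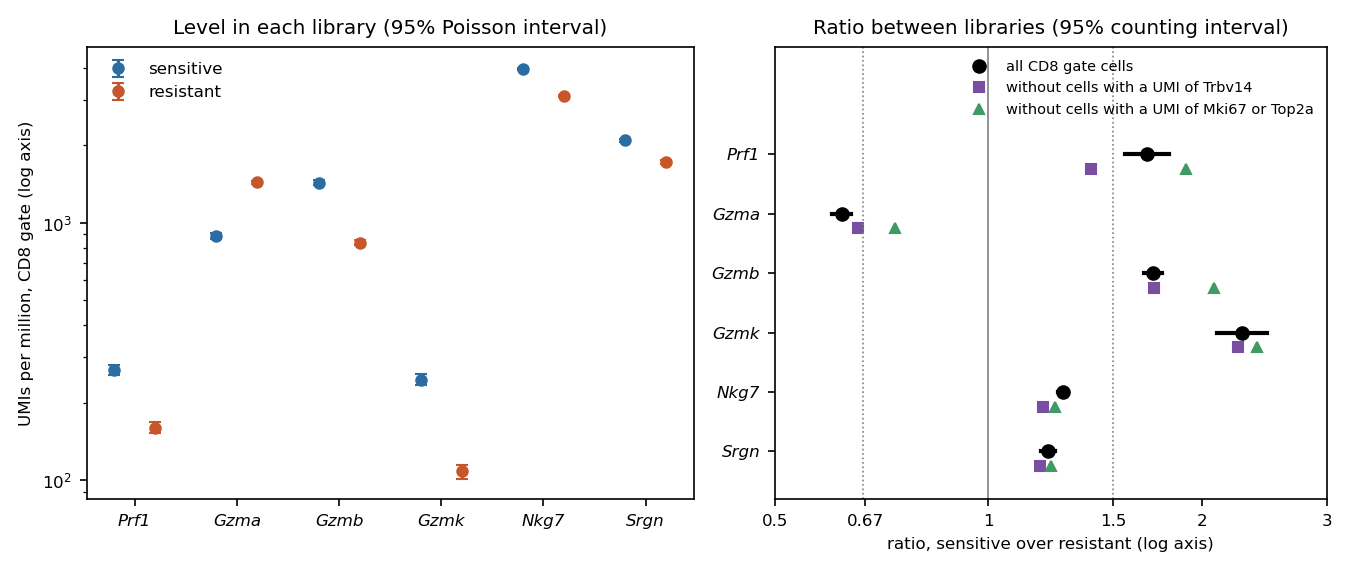
Left, CPM of each gene in the CD8 gate (log axis) in the sensitive and resistant T cell libraries with 95% Poisson intervals. Right, the sensitive over resistant ratio (log axis, dotted lines at 1.5-fold either way) over all CD8 gate cells with its 95% interval, without Trbv14 cells and without Mki67 or Top2a cells: Prf1 went from 1.67 to 1.40 without Trbv14 cells and Gzma from 0.621 to 0.740 without dividing cells.

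The other gates were smaller. In NK cells Gzma was lower in the sensitive library (1875 against 4526 CPM, ratio 0.414 [0.375 to 0.456]) and Nkg7 higher (3033 against 1975 CPM, 1.54 [1.39 to 1.70]). Prf1 (0.941 [0.736 to 1.203]), Gzmb (0.779 [0.694 to 0.874]) and Srgn (1.15 [1.03 to 1.29]) were within 1.5-fold. All 3 had alternatives on the other side of 1: Prf1 in 5 (1.06 to 1.33), Srgn with gates that need 2 UMIs (0.978), and Gzmb, which turned to 1.74 without Mki67 or Top2a cells, to 1.12 as a mean over cells and to 1.01 after thinning. The Nkg7 ratio was under the fold in 4 alternatives (1.32 to 1.48). Of 5 members with enough UMIs there, 1 was higher and 1 lower, where 13.8% and 8.93% of all genes were (22.7% either way). Of the 1432 Gzma UMIs of the resistant NK gate, 538 were in 1 cell, and the positive shares, 18.2% [9.08 to 30.9] and 28.9% [15.4 to 45.9], overlapped. In CD4 cells 1 of 3 members was higher in the sensitive library, Srgn at 1.68 [1.502 to 1.88], and 2 were lower, Nkg7 at 0.594 [0.489 to 0.724] and Gzmb at 0.521 [0.285 to 1.01], the last with an interval that spans 1. Gzmb had no settled direction in CD4 cells: its ratio was 1.39 as a mean over cells and 7.46 without Mki67 or Top2a cells, and its positive shares were 3.39% and 0%. The Srgn ratio was 1.49 as a mean over cells, and the Nkg7 ratio 0.854 with cells up to 20% mitochondrial UMIs. All genes gave 18.2% and 10.7%. In the Foxp3 gate only Srgn had enough UMIs, with a ratio of 0.794 [0.679 to 0.933], where 37.6% of all genes were past the fold either way. Its direction was not settled, since it was 1.08 as a mean over cells, 1.19 after thinning and 1.31 without Mki67 or Top2a cells, and 0.650 with gates that need 2 UMIs. The gamma-delta gate is mixed, with Cd8b1 in 27.0% and 24.0% of its cells. In it Gzmk was at least 5.36-fold higher in the sensitive library (53 UMIs against 0, set against a floor of 3 UMIs for the gate, with an exact lower 95% limit of 4.21), but Gzmk reached the 50 UMIs only through that library and is left out of the count. Of the 4 others with enough UMIs 0 were higher and 1 was lower, Nkg7 at 0.647 [0.547 to 0.768], where 21.1% and 7.34% of all genes were. Nkg7 was under the fold in 5 alternatives (0.674 to 0.869). Srgn (1.06), Gzma (0.898) and Gzmb (0.988) were within 1.5-fold, but the granzyme values changed with the cells used: Gzma was 2.08 with doublets kept, 2.15 after thinning and 15.4 without Mki67 or Top2a cells, and Gzmb was 1.81 after thinning, 1.84 as a mean over cells, 10.51 without Mki67 or Top2a cells and 10.66 with gates that need 2 UMIs. With 0 of 25 resistant gamma-delta cells Gzmk positive, up to 12.0% is allowed, and the sensitive share was 11.2% of 89 thinned cells, so the difference in shares was not detectable at this number of cells.

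Within the CD8 gate the members were spread over cells in different ways. Gzma was held by few cells: the 5% of CD8 cells with most of it had 98.6% of its thinned UMIs in the sensitive library and 90.1% in the resistant one. Cells with 10 or more Gzma UMIs per 1000 were 3.01% and 4.60% of the gate and held 90.9% and 87.7% of its UMIs. Gzmb was graded. The top 5% of cells held 50% and 53.5%, and cells with 10 or more UMIs were 3.64% of the sensitive and 0.894% of the resistant gate, holding 42.4% and 20.2% of its UMIs. No CD8 cell had 10 or more thinned UMIs of Gzmk, and positive cells had on average 1.43 and 1.23. Prf1 positive cells had on average 1.58 and 1.31. Nkg7 and Srgn were even, with 14.4% and 13.6% (Nkg7) and 15.9% and 15.6% (Srgn) of UMIs in the top 5% of cells.

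**Figure D3:**
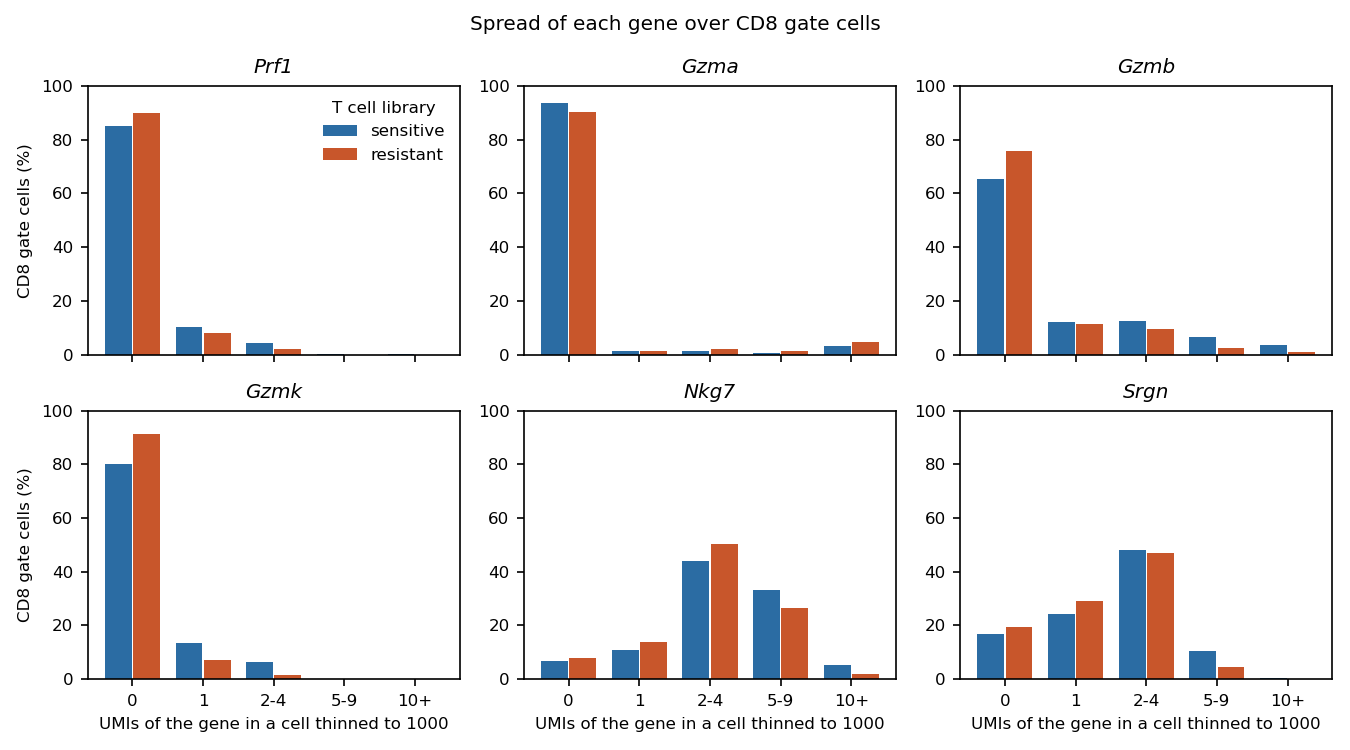
Percent of CD8 gate cells (y axis) by UMIs of each gene in a cell thinned to 1000 UMIs (x axis) in the sensitive and resistant T cell libraries. Bins differ in width, and the last has no upper limit. Gzma had most cells at 0 and 3.01% and 4.60% of cells at 10 or more, whereas Nkg7 and Srgn had most cells between 1 and 9.

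Most CD8 cells had no UMI of any of the 3 granzymes at this depth, 52.3% [49.5 to 55.1] in the sensitive library and 67.6% [65.2 to 69.9] in the resistant one. Gzmb alone was found in 23.4% and 16.7%, Gzmk alone in 11.1% and 4.41%, and Gzmb with Gzmk in 7.05% and 1.79%. Gzma alone was found in 1.66% and 2.81%, Gzma with Gzmb in 2.69% and 4.28%, Gzma with Gzmk in 0.317% and 0.894%, and all 3 granzymes in 1.504% and 1.60%. Each combination with Gzma thus had the larger share in the resistant library, with overlapping intervals. All of Prf1 and the 3 granzymes were found in 2 of 1263 and 5 of 1566 cells.

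Gzma and Gzmb occurred in the same cells. Among CD8 cells with Gzma, 67.9% [56.4 to 78.1] in the sensitive library and 61.3% [53.0 to 69.2] in the resistant one had Gzmb, against 32.4% [29.7 to 35.2] and 20.4% [18.3 to 22.6] of cells without Gzma. Gzmb and Prf1 were also found together: 49.5% [42.2 to 56.8] and 39.4% [31.8 to 47.4] of Prf1 positive cells had Gzmb, against 32.0% [29.2 to 34.9] and 22.6% [20.5 to 24.9] of the others. Both pairs had intervals that did not overlap in either library. With positive cells defined from 2 UMIs, the Gzmb share of resistant cells with Prf1 was 9.03 percentage points above that of the others, with an interval that includes 0 [-1.961 to 26.0]. Gzma and Prf1 were not paired in this way. Among Prf1 positive cells 3.68% [1.49 to 7.44] and 10.0% [5.82 to 15.7] had Gzma, against 6.62% [5.20 to 8.27] and 9.53% [8.05 to 11.2], so Prf1 and Gzma were each found with Gzmb but not more often with each other. Gzmk was found in 20% and 10.6% of Prf1 positive cells and in 19.9% and 8.46% of the rest. Gzmb was found in 42.9% [36.7 to 49.2] and 39.0% [30.7 to 47.7] of Gzmk positive cells, against 32.5% [29.7 to 35.5] and 22.9% [20.8 to 25.2] of the others, intervals that did not overlap in either library, but from 2 UMIs the sensitive difference was 4.64 percentage points [-4.10 to 15.4]. Gzma and Gzmk overlapped in the resistant library, where 28.7% [21.3 to 37.1] of Gzmk positive cells had Gzma against 7.76% [6.43 to 9.27], while in the sensitive library the shares were 9.13% [5.87 to 13.4] and 5.44% [4.12 to 7.02]. Over the CD8 cells of a library (n = 1263 and 1566, which share library and thinned depth), Spearman's rho was 0.20 and 0.30 for Gzma with Gzmb, 0.15 and 0.12 for Prf1 with Gzmb and -0.04 and 0.00 for Prf1 with Gzma, weak values in sparse counts.

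**Figure D4:**
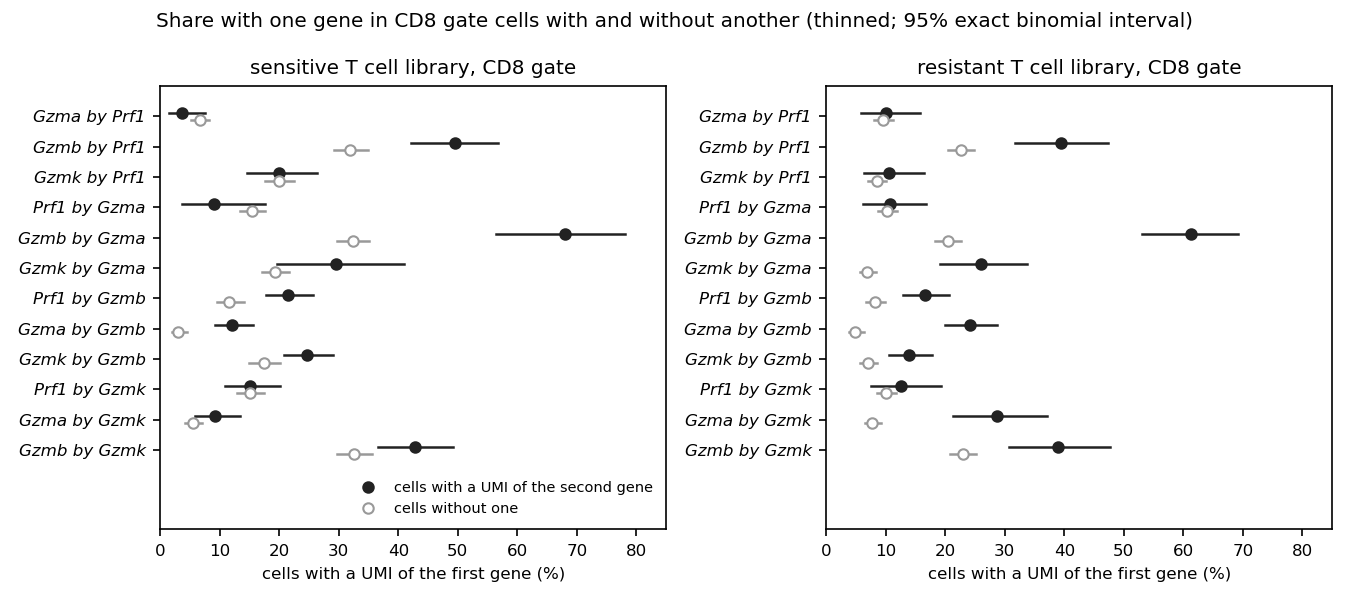
Percent of CD8 gate cells with a UMI of the first gene named (x axis) among cells with (filled) and without (open) a UMI of the second gene, in the sensitive (left) and resistant (right) T cell library, thinned, with 95% exact binomial intervals. Gzmb stood apart by Gzma (67.9% against 32.4%, and 61.3% against 20.4%) and Gzma by Prf1 did not (3.68% against 6.62%, and 10.0% against 9.53%).

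The members also differed with markers of CD8 cell state. Prf1 was found with Havcr2, which encodes the inhibitory receptor TIM-3: 40% [29.8 to 50.9] of 90 sensitive and 28.7% [19.5 to 39.4] of 87 resistant Havcr2 positive cells had Prf1, against 13.1% and 9.13% of the others. With Pdcd1, which encodes PD-1, the Prf1 share was 25.6% against 11.04% in the sensitive library and 11.73% against 9.57% in the resistant one. In the resistant library Gzma was found in 6.40% [4.36 to 9.01] of Pdcd1 positive cells against 10.9% [9.15 to 12.9]. Gzmk was found there in 5.12% [3.31 to 7.52] against 10.2% [8.48 to 12.2]. Both granzymes had overlapping intervals by Pdcd1 in the sensitive library. Prf1 was rare in cells with Itgae, the CD103 integrin chain of tissue-resident cells (4.00% of 75 and 1.32% of 76, against 15.7% and 10.7%). It was rare as well in cells with the surface protein gene Ly6c2 (6.20% of 258 and 4.32% of 139, against 17.3% and 10.8%). Gzma was found in larger shares of these cells, at 13.3% [6.58 to 23.2] and 27.6% [17.99 to 39.1] of Itgae positive cells against 5.72% [4.47 to 7.20] and 8.66% [7.28 to 10.2] of the rest, which overlapped in the sensitive library, and at 11.2% and 16.5% of Ly6c2 positive cells against 4.88% and 8.90%. By level, however, Gzma in Ly6c2 positive over negative cells was 1.61 in the sensitive library and 0.914 in the resistant one. Gzmk was more frequent in Ly6c2 positive cells (31.0% and 18.7% against 17.1% and 7.71%). Gzmb was found in 41.1% and 48.9% of Ly6c2 positive cells against 32.9% and 21.9%, and in 65.6% of Havcr2 positive cells of the sensitive library against 32.2%, with 32.2% against 23.9% in the resistant one. The intervals overlapped for Prf1 by Pdcd1 and Gzmb by Havcr2 in the resistant library and for Gzmb by Ly6c2 in the sensitive one.

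Tcf7 encodes TCF-1, a factor of naive and memory cells, and its positive CD8 cells were few (42 and 25). They had Gzmb in 16.7% and 4.00%, against 35.2% and 24.7% of the others, and Nkg7 in 73.8% and 84.0%, against 94.0% and 92.3%. Mki67 positive cells (37 and 88) had Gzmb in 35.1% and 12.5% against 34.6% and 25.03%. Cells with the interferon-induced gene Ifit3 (78 and 67) had Gzmb in 44.9% and 34.3% against 33.9% and 23.9%, and Gzmk in 25.6% and 17.9% against 19.6% and 8.27%, all with overlapping intervals, as had Nkg7 by Tcf7 in the resistant library and Gzmb by Mki67 in the sensitive one. Trbv14 was detected after thinning in 12.0% of sensitive and 3.70% of resistant CD8 cells. In the sensitive library 38.4% [30.6 to 46.7] of these 151 cells had Prf1, against 11.9% of the rest, and 49.0% had Gzmb against 32.6%. All 151 had Nkg7. In the resistant library 6.90% [1.91 to 16.7] of 58 Trbv14 positive cells had Prf1, against 10.3%, and 19.0% [9.87 to 31.4] had Gzmb against 24.5% [22.4 to 26.8]. All 58 had Nkg7. Marker UMIs and member UMIs were read in the same cells, and no cell class was defined from them.

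**Figure D5:**
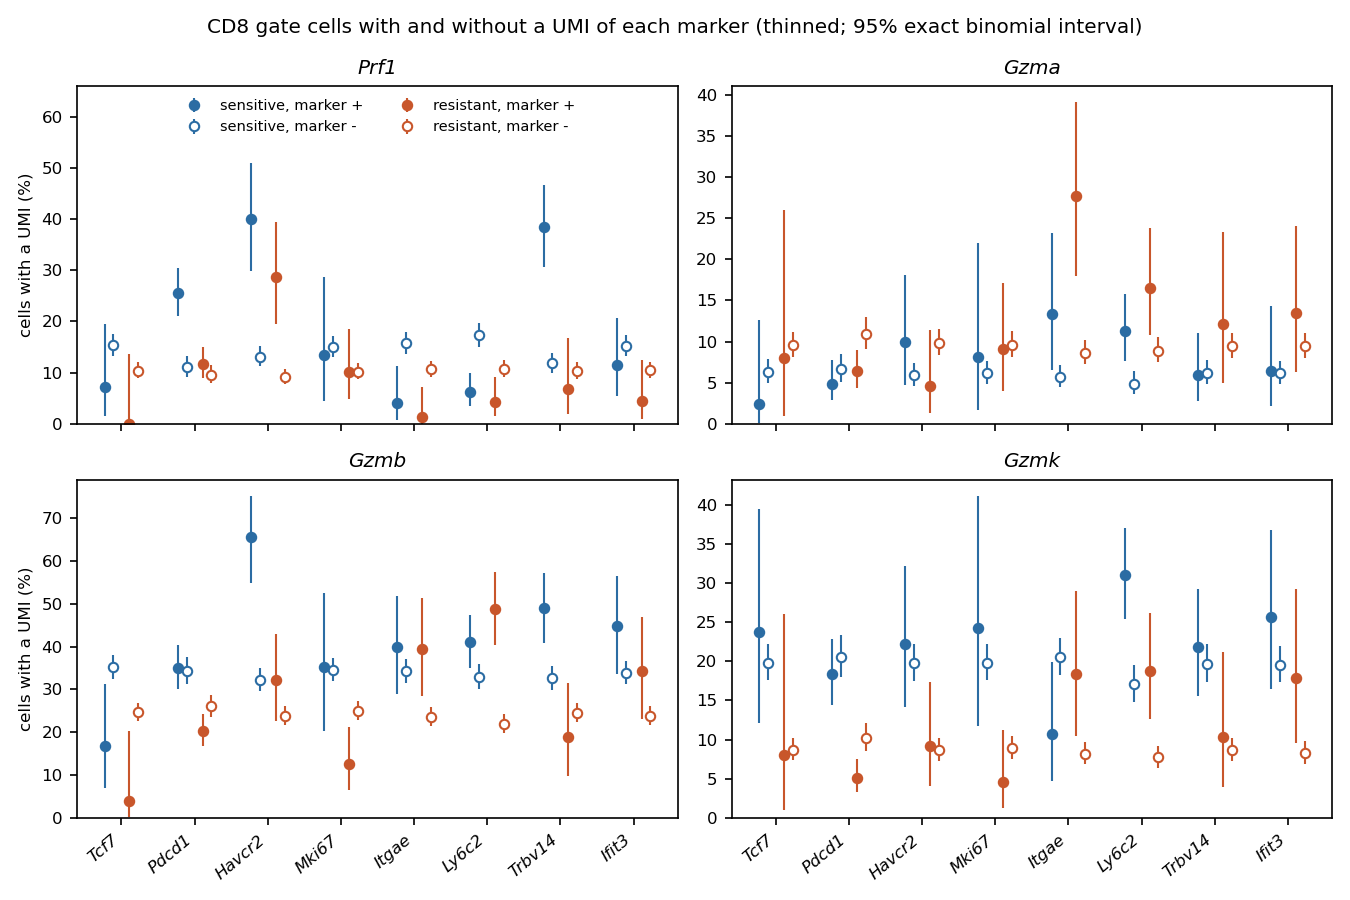
Percent of CD8 gate cells with a UMI of Prf1, Gzma, Gzmb or Gzmk (y axes, which differ) among cells with (filled) and without (open) a UMI of each marker (x axis), in the sensitive and resistant T cell libraries, thinned, with 95% exact binomial intervals. Prf1 was high with Havcr2 in both libraries and with Trbv14 in the sensitive one (38.4% against 11.9%), and low with Itgae and Ly6c2, while Gzma was positive in larger shares of the cells with Itgae (13.3% against 5.72%, with overlapping intervals, and 27.6% against 8.66%).

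Other genes of the pathway were taken from lists. Of 14 granule proteins and processing factors, 13 had enough UMIs. Gzmg (14 UMIs in the sensitive library and 426 in the resistant one, 2.24 against 46.3 CPM, ratio 0.0483 [0.0262 to 0.0819]) reached them only through the resistant library and is left out of the count. Of the 12 others none was 1.5-fold higher in the CD8 gate of the sensitive library and 4 were lower, all of them granzymes, where 6.70% of all genes were higher and 3.32% lower. These were Gzmc (125 against 301 CPM, ratio 0.416), Gzmd (34.1 against 86.7, 0.393), Gzme (20.8 against 64.95, 0.320) and Gzmf (79.3 against 312, 0.254). With Gzmg they are members of the mouse granzyme cluster next to Gzmb, have similar sequences and may share reads, so their split is uncertain. They differed in the direction of Gzma and opposite to Gzmb. The 8 others, among them cathepsin C (Ctsc, 1.06), which activates granzymes, lay within 1.5-fold, and the median ratio of the list, Gzmg included, was 1.06 against 1.09 over all genes. Of 9 exocytosis genes, 1 was higher, the syntaxin Stx11 (1.62 [1.29 to 2.03]), and none lower, a share near that of all genes, with a median of 1.18. Of 10 transcription factors 4 were higher and none lower, with a median of 1.38: Tbx21 (1.63), which encodes T-bet, Prdm1 (1.64), which encodes BLIMP-1, Zeb2 (1.52) and Tcf7 (2.07 [1.65 to 2.59]). Of 4 receptors and ligands 1 was higher, Fasl (1.90 [1.75 to 2.06]), which encodes the death ligand of the granule-independent killing route, and the list's median was 1.33.

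Genes with a pattern most like each member were sought over 10 profiles (5 gates in 2 libraries), as Pearson's r of log2(CPM + 10) among 6971 genes with at least 200 UMIs. For Prf1 they were Dapk2 (r = 0.982), Klre1 (0.981) and Cd160 (0.976), and for Gzma Klre1 (0.965), Dapk2 (0.941) and Klrd1 (0.933). Klre1 was one of the genes that defined the NK gate. For Gzmb they were Klrc2 (0.947), Abr (0.931) and Pvrig (0.920), and for Nkg7 Klrc1 (0.988), Mtmr1 (0.978) and Extl3 (0.957). For Gzmk the likeness was weaker (Dclk2 0.890, Surf1 0.873, Hip1r 0.857). For Srgn the nearest were Picalm (0.962), Il2ra (0.953), the interleukin-2 receptor chain of regulatory T cells, and Trp53i11 (0.939). Profiles of 1 library share their depth and free RNA, and small gates hold few UMIs.

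The whole-tumor libraries held few lymphocytes, 61, 5 and 17 cells with a Cd3 gene or in the NK gate in the control-, the sensitive- and the resistant-labelled library (median 1553, 3628 and 2558 UMIs). Gzmb was found in 14.8% [6.98 to 26.2] of them in the control-labelled library, in 80.0% [28.4 to 99.5] in the sensitive-labelled one and in 70.6% [44.0 to 89.7] in the resistant-labelled one. Nkg7 was found in 24.6% [14.5 to 37.3], 80.0% [28.4 to 99.5] and 76.5% [50.1 to 93.2]. Gzma was found in 6.56% [1.82 to 15.9], 60.0% [14.7 to 94.7] and 47.1% [23.0 to 72.2], and Prf1 in 6.56%, 0% and 23.5%, where 0 of 5 cells allows up to 60.0%. Gzmk was found in 0 of 61, 0 of 5 and 4 of 17 cells. The resistant-labelled intervals of Gzmb, Nkg7 and Gzma lay above those of the control-labelled library, and that of Gzmb in the sensitive-labelled one rested on 5 cells: without the exclusion of cells with markers of another lineage its share was 44.4% of 9 cells, against 10.5% of 95 control-labelled and 56.5% of 23 resistant-labelled cells. The cells also differed in kind, with 9 CD8, 5 NK and 33 unassigned Cd3+ cells in the control-labelled library, 8 CD8 and 4 NK cells in the resistant-labelled one and 0 CD8, 1 NK and 3 unassigned Cd3+ cells in the sensitive-labelled one. The control lymphocytes were also the shallowest, and the parts of depth and of cell type were not tested. The sensitive- and resistant-labelled intervals overlapped for each of these genes. Neutrophil gate cells, which should lack them, had Gzmb in 0.330%, 0.431% and 1.52% and Gzma in 0.990%, 0.862% and 1.52%. Of all Srgn UMIs, 78.9%, 86.5% and 59.7% were in neutrophil gate cells, and 97.7% to 98.7% of those cells had one.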

How the data were processed

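Members, gene lists, gates and comparisons were chosen with earlier results of these data known. Per the file headers, the authors ran Cell Ranger 6.0.0 (T cell) and 3.0.1 (whole tumor) and deposited raw UMI counts per gene and barcode on mm10, with no normalization. Feature lists differ, so the sets were not compared with each other. T cell barcodes needed 500 genes or more and no more than 10% mitochondrial UMIs, and whole-tumor barcodes 200 genes. Scrublet removed 112 and 159 putative doublets (0.8% per 1000 barcodes, T cell sets only). Cells with 30 or more UMIs per 10000 of another lineage's markers left the lymphocyte gates. CPM, Clopper-Pearson, Poisson and conditional binomial intervals, and log-scale normal intervals for ratios of shares, were computed with Python 3.11.15, numpy 2.4.6 and scipy 1.17.1. With 1 library a group no test was possible. Ratios and list counts needed 50 UMIs over both libraries, a pathway gene 100 to be named, and 1.5-fold named a difference. A count of 0 was given an upper limit of 3 counts. Named genes were the 6 members, listed pathway genes past the fold and the 3 most like genes of each member. Scripts were tested on simulated counts. Alternatives covered gates, filters, thinning, scaling and cell subsets.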

Additional observations from a re-analysis of the deposited data

Results flagged for a closer look

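Some differences went in opposite directions in the 2 T cell libraries or in 2 gates, and none of these differences was tested, since each group had 1 library. The Prf1 level in Trbv14 positive over negative CD8 cells was 4.30 in the sensitive library and 0.507 in the resistant one, the latter on 58 cells, where the shares with Prf1 overlapped (6.90% [1.91 to 16.7] against 10.3%). For Gzma in Havcr2 positive over negative cells the ratios were 3.27 and 0.268, but they rest on the 10.0% [4.68 to 18.1] of 90 and 4.60% [1.27 to 11.4] of 87 cells that had Gzma, shares that overlapped those of the others (5.88% [4.61 to 7.39] and 9.87% [8.40 to 11.5]). For Gzmk they were 0.592 and 2.22 with Itgae (75 and 76 cells), and 1.64 and 0.518 with Mki67 (37 and 88 cells), and the shares with Gzmk overlapped except with Itgae in the resistant library (18.4% [10.45 to 29.0] against 8.19% [6.85 to 9.70]). Nkg7 was higher in the sensitive library in NK cells (1.54) and lower in CD4 (0.594) and gamma-delta cells (0.647), but these values were under the fold of 1.5 in 4 alternatives in NK (1.32 to 1.48), 1 in CD4 (0.854) and 5 in gamma-delta cells (0.674 to 0.869).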

How the results depend on the processing

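Every CPM ratio of a member in the CD8 gate was on the same side of 1 under all 10 alternatives run. With cells up to 20% mitochondrial UMIs, the ratios were 1.85 for Prf1 and 1.90 for Gzmb. As the mean over cells of each cell's CPM they were 1.97 for Prf1, 2.29 for Gzmb, 2.52 for Gzmk and 1.24 for Nkg7. Divided by the median ratio of all genes they were 1.53 for Prf1, 0.568 for Gzma, 1.56 for Gzmb, 2.08 for Gzmk, 1.16 for Nkg7 and 1.11 for Srgn. Without Mki67 or Top2a cells they were 1.90 for Prf1, 0.740 for Gzma, 2.08 for Gzmb and 1.24 for Nkg7. Without Trbv14 cells they were 1.40 for Prf1, 0.656 for Gzma, 1.196 for Nkg7 and 1.18 for Srgn. Without the exclusion of cells with markers of another lineage they were 0.641 for Gzma, 1.77 for Gzmb, 1.30 for Nkg7 and 1.29 for Srgn, and with the stricter exclusion Gzma was 0.644. After thinning they were 2.30 for Gzmb, 2.68 for Gzmk and 1.23 for Nkg7. The share with Gzmb in Prf1 positive minus negative CD8 cells was 17.5 (sensitive) and 16.8 (resistant) percentage points, and with positive cells defined from 2 UMIs it was 30.6 and 9.03 [-1.961 to 26.0]. The CD4 ratio of Gzmb turned to 1.39 as a mean over cells and to 7.46 without Mki67 or Top2a cells, and had no value with 2-UMI gates or after thinning, when the resistant gate held no Gzmb UMI, nor had Gzma in the gamma-delta gate with 2-UMI gates. The near-equal positive shares of Nkg7 turned to 0.994 without thinning and 0.996 after thinning to 2000 UMIs, and those of Srgn to 0.988 without thinning. The causes were not tested. The other values for CD8 levels, Gzmb by Prf1 and whole tumor (42) were within counting error of the values reported. Of the values for other gates, shares and pairs, 149 were within it and 39 were not. No paired analysis was possible because each group had 1 library, and no library could be left out for the same reason.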

Other observations

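Cells with a Cd3 gene that fell in none of the T cell gates, having no UMI of the Cd4, Cd8 or Foxp3 genes or UMIs that exclude each other (362 and 201 thinned cells in the sensitive and resistant T cell libraries) were in none of the comparisons. Nkg7 was found in 54.7% [49.4 to 59.9] and 60.2% [53.1 to 67.02] of them, Gzmb in 16.9% [13.1 to 21.1] and 14.4% [9.88 to 20.1], Prf1 in 6.91% and 6.97%, Gzmk in 5.52% and 3.48% and Gzma in 3.87% and 2.99%. These shares lay between those of the CD4 and CD8 gates in the sensitive library for the 5 genes, and in the resistant one for all but Gzma, which was below both (4.44% and 9.58%). They held 19.2% and 10.2% of all Prf1 UMIs of the cells used, against 71.8% and 79.1% in the CD8 gate.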
